A study of Mus musculus with 12 samples.

Results

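Interferon-stimulated genes are the genes that cells switch on when interferon reaches its receptors. A list of 39 such genes was followed in mouse duodenum. A member was taken as measured where an array feature, a set of probes summarised to 1 value, carried its symbol and no other symbol, and where a gene had several such features the one with the highest mean was used. By that rule 35 of the 39 genes were measured, of 19938 genes in all. Isg15, Gbp2 and Igtp lie only on features listed with several symbols, and they and Ifi44 were not analysed here. Oas1a, Oasl1 and Oasl2, Mx1 and Mx2, and the Ifit genes have close relatives in the mouse genome, and how far their probes can tell such relatives apart was not tested.

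The study used duodenal segments of 129 mice at postnatal day 15, in the suckling period, and at day 30, after weaning. Mice were wild type or carried an ablated Onecut2, which encodes a cut-type homeodomain transcription factor. The 4 groups were therefore wild type at day 15, Onecut2 knockout at day 15, wild type at day 30 and Onecut2 knockout at day 30, each with 3 arrays, and no mouse was treated. Each array measured 1 pool, made of RNA from 5 to 8 mice of both sexes, so it averages over animals, and the tissue is the whole segment with its epithelium, immune cells and muscle. The sources used here do not give how the gene was ablated.

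Values are log2 expression values, so a difference of 1 is a doubling of signal. Array medians lay between 7.20 and 7.25. Onecut2 itself had values of 9.50 to 9.69 on the wild type arrays and of 8.09 to 8.25 on the knockout arrays. Enterocyte markers averaged 12.52 to 12.83 on the 12 arrays, and pancreas acinar markers averaged 11.61 to 12.79 on the same arrays. In such bulk tissue, fewer cells of a type and less RNA per cell cannot be told apart.

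Interferons come in families that differ in their receptors. Type I interferons (alpha and beta) act through Ifnar1 and Ifnar2 on most cells, type III interferons (lambda) act through Ifnlr1 and Il10rb and mainly on epithelium, and type II interferon (gamma), made by T cells and natural killer cells, acts through Ifngr1 and Ifngr2. Types I and III act through Stat2 and Irf9 on the interferon-stimulated response element, whereas many genes of the gamma response carry the gamma-activated site. In the gut this response limits viral infection of the epithelium, and microbial signals can keep it partly active.

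These elements were looked for in the DNA in front of the members. Windows that held a match are shown for 4 antiviral or chemokine genes and for Irf1. The core of the response element was searched as GAAA, any 2 bases and GAAA again, and the gamma-activated site as TTC, any 3 bases and GAA, on both strands, in the 250 bases before the start site in RefSeq (GRCm38.p6). The first motif was present in 978 of 32851 promoter entries (2.98%) and the second in 2306 (7.02%). RefSeq promoter entries were matched for 27 members. A member was counted where any of its entries held the motif, so the member counts are per gene and not per entry. The first motif lay in 10 of them (Bst2, Cxcl10, Gbp3, Ifit1, Ifit3, Irgm1, Oas1a, Oas3, Rsad2 and Stat2) and the second in 6 (Bst2, Eif2ak2, Ifit2, Irf1, Oas1a and Psmb8). A match is a match of letters and not a measured binding site. For each gene printed, the first entry with a match was used. The 220 bases before each start are printed 5′ to 3′ in the direction of the gene, with the motif in capitals, which reads as TTTC, any 2 bases and TTTC where it lies on the other strand. The windows lie at chr19:34583309-34583528 (+ strand) for Ifit3, chr19:34640669-34640888 (+ strand) for Ifit1, chr12:26456453-26456672 (- strand) for Rsad2, chr5:92348890-92349109 (- strand) for Cxcl10 and chr11:53769794-53770013 (+ strand) for Irf1. The capitals mark the first motif in the first 4 windows and the second in that of Irf1.
Ifit3: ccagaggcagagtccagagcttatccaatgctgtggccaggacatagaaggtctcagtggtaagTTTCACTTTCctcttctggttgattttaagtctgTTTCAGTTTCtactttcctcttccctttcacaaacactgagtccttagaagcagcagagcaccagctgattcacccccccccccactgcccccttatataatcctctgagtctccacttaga
Ifit1: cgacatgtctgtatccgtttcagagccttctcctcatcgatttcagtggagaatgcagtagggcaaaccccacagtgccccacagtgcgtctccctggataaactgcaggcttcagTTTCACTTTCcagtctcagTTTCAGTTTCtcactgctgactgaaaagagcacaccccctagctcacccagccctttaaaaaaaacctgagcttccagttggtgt
Rsad2: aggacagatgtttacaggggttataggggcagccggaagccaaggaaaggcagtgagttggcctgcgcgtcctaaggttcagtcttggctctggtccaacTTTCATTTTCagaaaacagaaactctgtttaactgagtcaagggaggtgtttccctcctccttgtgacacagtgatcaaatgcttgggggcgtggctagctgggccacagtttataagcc
Cxcl10: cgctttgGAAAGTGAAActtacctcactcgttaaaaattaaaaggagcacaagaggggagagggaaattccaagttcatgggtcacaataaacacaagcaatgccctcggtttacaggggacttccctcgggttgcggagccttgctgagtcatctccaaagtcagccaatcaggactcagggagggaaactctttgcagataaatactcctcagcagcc
Irf1: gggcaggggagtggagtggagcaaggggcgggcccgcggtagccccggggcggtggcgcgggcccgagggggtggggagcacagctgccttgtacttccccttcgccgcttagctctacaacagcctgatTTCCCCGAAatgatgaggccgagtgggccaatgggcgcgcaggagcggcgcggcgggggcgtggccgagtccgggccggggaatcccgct

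The Ifit3 and Ifit1 windows each held 2 matches, which began 156 and 122 bases before the Ifit3 start and 104 and 85 bases before the Ifit1 start. Rsad2 and Cxcl10 had 1 match each, 120 and 213 bases before the start.

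The members differed more between pools of one group than most genes did, and most of all at day 15. Over the 3 knockout pools of day 15 the median range of the 35 members (highest minus lowest log2 value) was 1.05, against 0.14 over all genes tested. It was 0.52 in wild type at day 15, 0.36 in wild type at day 30 and 0.38 in knockout at day 30, where all genes had medians of 0.15, 0.15 and 0.17. A range of 1 or more was reached in knockout at day 15 by 20 members, against 99 of all genes (0.497%). The counts were 10 members in wild type at day 15 (0.186% of all genes), 1 in wild type at day 30 (0.16%) and 5 in knockout at day 30 (0.125%). These are descriptions, without a test.

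The pools differed in 1 direction for nearly all members. Averaged over the 35 members, the knockout pools of day 15 had log2 values of 9.24, 10.50 and 10.45 in pools 1, 2 and 3. The wild type pools of day 15 had 9.26, 9.74 and 9.95. At day 30 the wild type pools had 9.45, 9.18 and 9.57 and the knockout pools 8.95, 9.28 and 9.38. Pool 1 was the lowest of its group for 35 of 35 members in knockout and for 33 of 35 in wild type at day 15. At day 30 the lowest pool was pool 2 for 32 members in wild type and pool 1 for 30 members in knockout. The labels do not tell whether pools of the same number in different groups have anything in common.

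Knockout pool 1 of day 15 stood apart from the other knockout pools of that age. It lay below all 3 wild type pools for 20 members, between them for 15 and above them for 0. Pool 2 lay above all 3 wild type pools for 34 members and pool 3 for 35. Without pool 1, the median range of the members in this group was 0.12. A range over 2 pools cannot exceed that over 3, so this value is not comparable with the medians over 3 pools. Because knockout pool 1 stood apart, the counts of called genes that use day 15 are also given without it. Wild type pool 1 of day 15, the lowest of its own group for 33 of 35 members, was kept in those fits. No fit left out both pools.

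**Figure D1:**
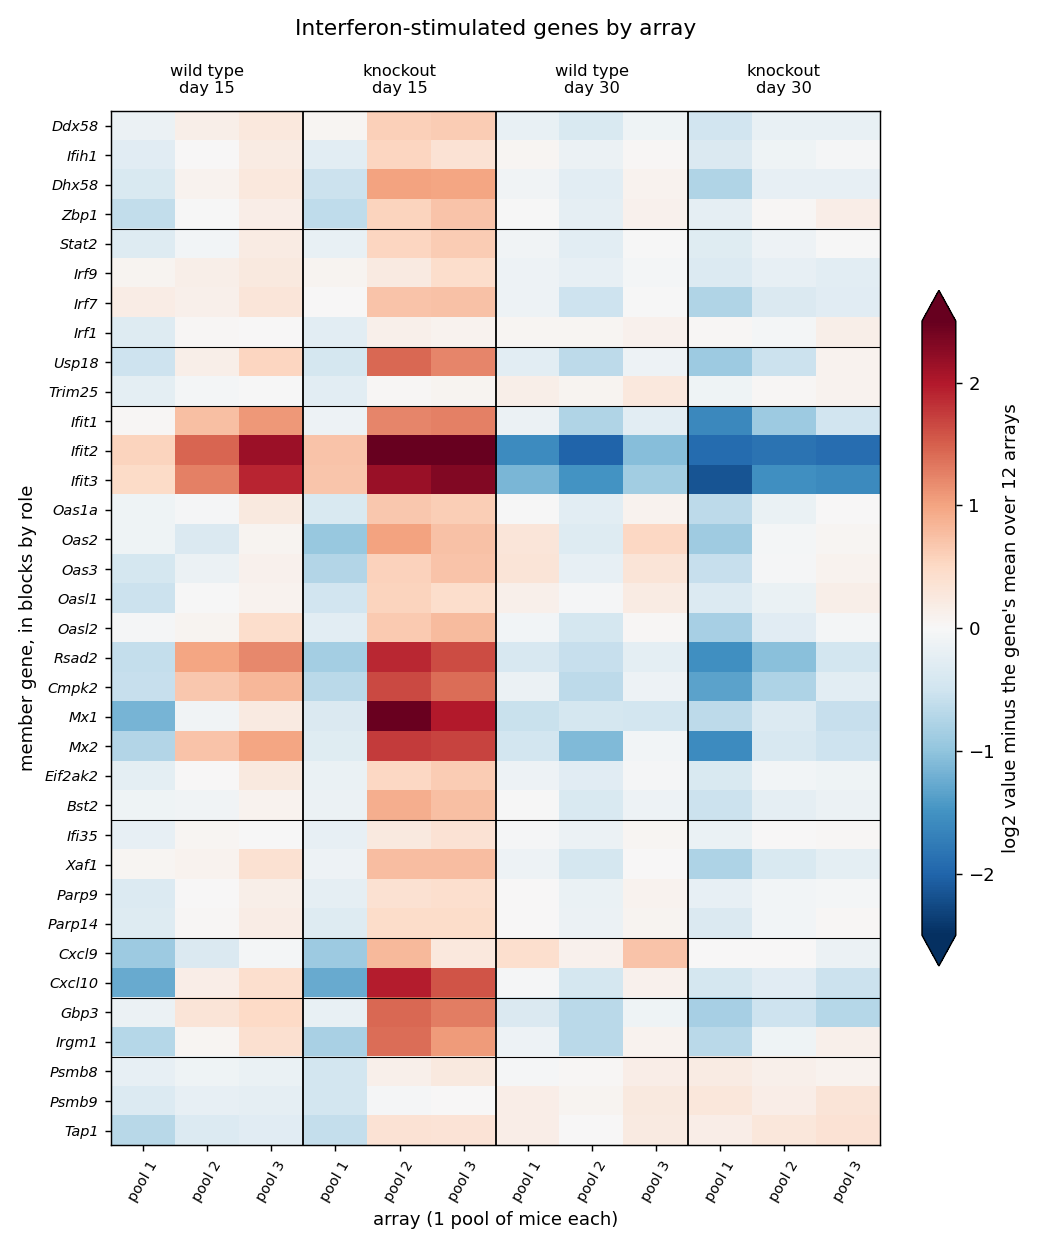
Each row is 1 of the 35 measured interferon-stimulated genes, ordered by role, and each column is 1 of the 12 arrays; colour gives the log2 value minus the gene's mean over all arrays. Knockout pools 2 and 3 of day 15 are the columns with the highest values for most rows, while pool 1 of the same group is not.

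Of the members, the chemokine gene Cxcl10 had the widest range in knockout at day 15. Cxcl10, whose product attracts T cells that carry Cxcr3, had log2 values of 7.09, 10.30 and 9.92 in the knockout pools of day 15, a range of 3.21. In wild type at that age it had 7.09, 8.52 and 8.77. The lowest pool of either genotype was at 7.09, while the other knockout pools lay above every wild type pool. Cxcl9, a second Cxcr3 ligand induced chiefly by gamma, had 7.12, 8.84 and 8.30 in knockout and 7.13, 7.66 and 7.99 in wild type.

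Among the 14 antiviral effectors, pool 1 was the lowest pool of day 15 for 14 in knockout and for 13 in wild type, while the order of pools 2 and 3 varied. Mx1, a GTPase that blocks the replication of influenza and related viruses, had 6.89, 9.72 and 9.24 in knockout at day 15 and 6.09, 7.16 and 7.47 in wild type. Rsad2 (viperin, which makes a chain-terminating nucleotide) had 9.02, 11.75 and 11.51 in knockout and 9.27, 10.85 and 11.07 in wild type. Cmpk2, the neighbour of Rsad2 that supplies its nucleotide substrate, had 9.08, 11.41 and 11.14 in knockout and 9.18, 10.43 and 10.58 in wild type. For all 3 genes the groups overlapped, because knockout pool 1 lay at or below wild type pools 2 and 3.

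Among the GTPases of cell-autonomous defence, Irgm1 had 8.16, 10.36 and 10.04 in knockout at day 15 and 8.25, 9.02 and 9.36 in wild type. Gbp3 had 9.11, 10.75 and 10.58 in knockout and 9.16, 9.63 and 9.81 in wild type. Usp18, the protease that removes Isg15 from proteins and restrains receptor signalling, had 8.84, 10.72 and 10.49 against 8.76, 9.43 and 9.82. Pool 1 of both genotypes was low for each of these genes. The smallest ranges were those of Trim25, a ubiquitin ligase of the Ddx58 pathway, with 10.58, 10.88 and 10.92 in knockout, and of Irf9 and Irf1, with 9.18, 9.34 and 9.56, and 10.65, 11.03 and 11.00.

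**Figure D2:**
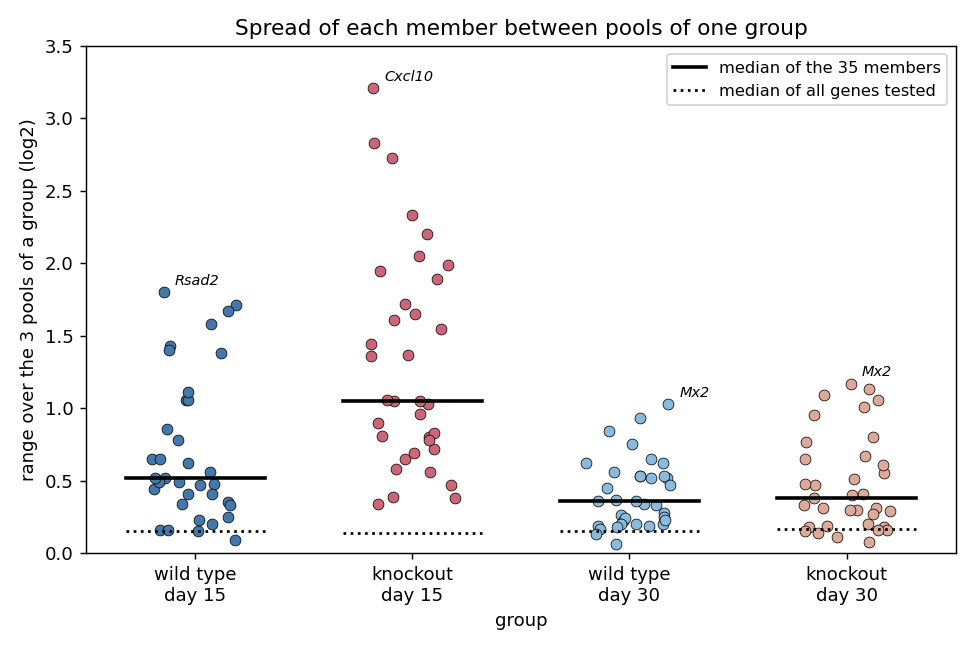
Each point is 1 measured member, and its height is the range of its log2 values over the 3 pools of a group, with the groups along the x axis a solid line for the member median and a dotted line for the median over all genes. Knockout at day 15 has the highest member median, 1.05, and Cxcl10 is its highest point at 3.21.

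Other genes with wide ranges were examined by a rule that took the 10 genes outside the list with the largest range over the same knockout pools. Of these, 4 belonged to lists of other interferon response genes (Ifi205, Ifit3b, Trim30d and Iigp1). Ifi205 had 6.94, 9.17 and 8.69, and Iigp1, a GTPase that acts against intracellular parasites, had 7.77, 9.95 and 9.64. Slfn4 (8.02, 11.37 and 10.44), Phf11a (5.49, 8.31 and 7.38) and BC023105 (4.56, 6.99 and 6.99) had the same low pool 1, as did Mcoln3 (6.79, 9.66 and 8.39) and Retnlb (6.64, 8.97 and 8.79). The remaining gene, a segment of the immunoglobulin kappa light chain, was low in pool 2 instead, with 8.43, 5.40 and 9.05.

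Whether the members differed between genotypes at day 15 was then tested with limma, which moderates the variance of each gene, with Benjamini-Hochberg adjustment over all 19938 genes and a threshold of 0.05. No member passed, where 3.83% of all genes did, and 4 members (Mx1, Bst2, Tap1 and Ddx58) had an unadjusted p under 0.05. The log2 fold change of knockout over wild type was above 0 for 35 of 35 members, with a median of 0.35 and a range of 0.05 to 1.71, while the median over all genes was -0.01. The members were read on the same arrays, so 35 like signs are not 35 separate observations. With 1 pool left out, the sign changed for some members. It did so for 2 members without knockout pool 2, 5 without knockout pool 3 and 4 without wild type pool 1. No sign changed when any other pool of day 15 was left out. The groups overlapped for every member, whereas 21.3% of all genes had groups that did not overlap. The largest difference was that of Mx1, at 1.71 (SE 0.55, 95% interval 0.51 to 2.91, limma adjusted p = 0.13). Cxcl10 had 0.97 (SE 0.65), Mx2 0.72 (SE 0.56) and Usp18 0.68 (SE 0.43). These errors come from a variance shared by all 4 groups. For Mx1 the SDs were 0.72 in wild type and 1.52 in knockout at day 15, but 0.07 and 0.16 at day 30. For Cxcl10 they were 0.9 and 1.75, but 0.28 and 0.14 at day 30. The errors of both genes and the interval of Mx1 therefore understate the spread at day 15.

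Without knockout pool 1, 14 of 35 members passed and all 14 were higher in knockout, where 2.08% of all genes were called higher, and the median of the members was 0.65. They were Mx1, Bst2, Tap1, Gbp3, Cxcl10, Dhx58, Stat2, Psmb8, Eif2ak2, Irgm1, Usp18, Cxcl9, Ddx58 and Zbp1. Mx1 then differed by 2.57 on the log2 scale (SE 0.30, limma adjusted p = 5.69e-04) and Cxcl10 1.98 (SE 0.37, limma adjusted p = 0.013). Bst2 (tetherin, which holds budding virus at the cell surface) had 0.87 (SE 0.12, limma adjusted p = 0.0022), and Tap1, a peptide transporter of antigen presentation, had 0.79 (SE 0.11, limma adjusted p = 0.0023). Leaving out any other pool of day 15 gave 0 called members. This pool was singled out because of its values for these genes, so the count without it describes the remaining pools and is no separate test of the genotype. Wild type pool 1, which was low as well, stayed in that fit. Only the knockout group had therefore lost its lowest pool.

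**Figure D3:**
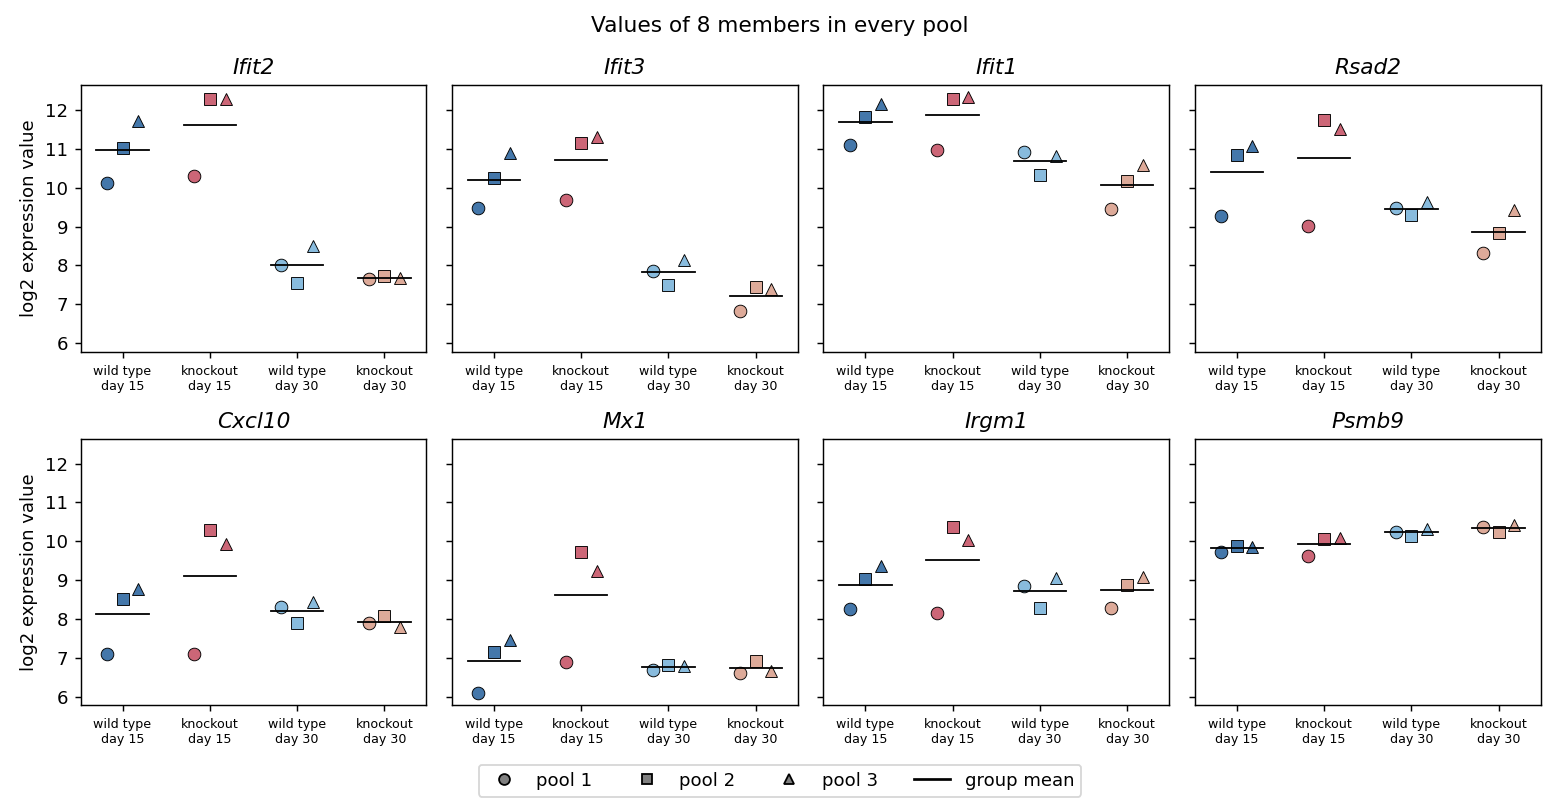
Log2 values of selected interferon-stimulated genes in each pool, with groups along the x axis, a marker shape for each pool number and a line for the group mean. At day 15 the lowest knockout point, pool 1, lies among or below the wild type points (7.09 for Cxcl10), and the other knockout points lie above them (10.30 and 9.92).

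With age, the clearest falls were those of the Ifit genes, which encode proteins that bind viral RNA or block its translation. Ifit2 had log2 values of 10.13, 11.03 and 11.71 in wild type at day 15 and of 8.00, 7.56 and 8.50 at day 30. In knockout it had 10.29, 12.28 and 12.29 at day 15 and 7.65, 7.73 and 7.67 at day 30. Every day 30 pool lay below every day 15 pool in both genotypes, low pool 1 included. The log2 fold change was -2.94 in wild type (SE 0.48, limma adjusted p = 4.54e-04, a 7.65-fold lower signal) and -3.94 in knockout (SE 0.48, limma adjusted p = 4.34e-05, 15.3-fold lower).

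Ifit3, the partner that stabilises Ifit1, had 9.47, 10.25 and 10.90 in wild type at day 15 and 7.85, 7.49 and 8.13 at day 30. The knockout values were 9.69, 11.14 and 11.30 at day 15 and 6.83, 7.45 and 7.39 at day 30. Again no day 30 pool reached a day 15 pool. The log2 fold change was -2.38 in wild type (SE 0.41, limma adjusted p = 5.82e-04) and -3.49 in knockout (SE 0.41, limma adjusted p = 2.78e-05). Both genes stayed called in both genotypes when any 1 array of the groups compared was left out. Ifit1, an RNA-binding protein of the same family, had 11.10, 11.82 and 12.16, then 10.93, 10.32 and 10.81 in wild type, and 10.96, 12.29 and 12.33, then 9.46, 10.16 and 10.59 in knockout. Its log2 fold change of -1.01 in wild type did not pass (SE 0.38, limma adjusted p = 0.064), while that of -1.79 in knockout did (SE 0.38, limma adjusted p = 0.0028).

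Over the whole list, the wild type comparison of ages called 5 members, 3 lower and 2 higher, where 29.3% of all genes were called. That is 8.57% of members lower, where 17.0% of all genes were lower, and 5.71% higher, where 12.3% were, so the list as a whole was not called more often than other genes. The third lower member was Irf9, the DNA-binding subunit of the type I and III complex. It had 9.19, 9.26 and 9.35 at day 15 and 8.98, 8.90 and 9.07 at day 30, a change of -0.28 (SE 0.09, limma adjusted p = 0.029). All day 30 pools lay above all day 15 pools for 6 members, where 20.7% of all genes did, and below them for 6, where 23.1% did. The median change of the members was -0.10, against 0.02 over all genes. With 1 array left out at a time, 3 to 5 members were called. Irf9 passed in 2 of these 6 fits and Tap1 in 0.

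In knockout, 16 members were called, where 31.0% of all genes were, and of these 15 were lower at day 30 and 1 was higher. The lower share was 42.9%, where 17.2% of all genes were lower, and the higher share was 2.86%, where 13.8% were higher. Beside Ifit1, Ifit2, Ifit3 and Irf9, the lower members were Rsad2 (-1.90), Mx1 (-1.88), Mx2 (-1.88), Cmpk2 (-1.58), Gbp3 (-1.53), Irf7 (-0.94), Xaf1 (-0.93), Bst2 (-0.81), Oasl2 (-0.78), Ddx58 (-0.71) and Eif2ak2 (-0.52). The effectors gave 10 of the 15, with all 14 measured effectors below 0. All day 30 pools lay below all day 15 pools for 9 members (22.0% of all genes) and above them for 1 (20.9%). The median change of the members was -0.59, against 0.03 over all genes.

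How many passed in knockout depended on single pools. Without knockout pool 1 of day 15, 29 members were lower, where 15.7% of all genes were, and 1 was higher, where 12.4% were. Without knockout pool 2 or pool 3 of day 15, or without knockout pool 1 of day 30, 8 of 35 members were lower. Of all 19938 genes, 2981, 2799 and 3005 were lower in those fits, in the same order. The 8 members (Ddx58, Gbp3, Ifit1, Ifit2, Ifit3, Irf7, Irf9 and Xaf1) passed in each of the 6 fits that left out 1 array of these groups. Bst2, Cmpk2, Eif2ak2, Mx1, Mx2, Oasl2 and Rsad2 did not pass in all of them.

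Irf7, the transcription factor that amplifies type I interferon production, had 10.37, 11.07 and 11.09 in knockout at day 15 and from 9.62 to 10.08 at day 30. All day 30 pools lay below the day 15 pools. Its change was -0.94 (SE 0.19, limma adjusted p = 0.0019), while the value of -0.42 in wild type did not pass (SE 0.19, limma adjusted p = 0.12). Ddx58, which encodes the viral RNA sensor RIG-I, had 10.49, 11.04 and 11.07, then 9.96, 10.25 and 10.26, a change of -0.71 (SE 0.15, limma adjusted p = 0.0029). Xaf1, an antagonist of inhibitors of apoptosis, changed by -0.93 (SE 0.22, limma adjusted p = 0.0054) and Gbp3 by -1.53 (SE 0.34, limma adjusted p = 0.0036). In wild type, the log2 fold changes of Ddx58, Xaf1 and Gbp3 were -0.32, -0.35 and -0.61, and none passed.

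Of the 3 measured antigen processing genes, 2 rose with age in wild type and 1 in knockout. Psmb9, an inducible subunit of the immunoproteasome, had 9.73, 9.88 and 9.85 in wild type at day 15 and 10.25, 10.14 and 10.32 at day 30. The knockout values were 9.62, 10.06 and 10.09, then 10.37, 10.25 and 10.41. Every day 30 pool lay above every day 15 pool in both genotypes. Psmb9 rose by 0.41 in wild type (SE 0.11, limma adjusted p = 0.010) and, in knockout, by 0.42 (SE 0.11, limma adjusted p = 0.0086). Tap1 rose by 0.58 in wild type (SE 0.20, limma adjusted p = 0.049), with 8.87, 9.22 and 9.28 at day 15 and 9.74, 9.57 and 9.79 at day 30. In knockout its log2 fold change was 0.24 (SE 0.20, limma adjusted p = 0.42), where day 15 pools 2 and 3 were at 9.93 and 9.90 and the day 30 pools at 9.73 to 9.93. Psmb8, a second immunoproteasome subunit, had log2 fold changes of 0.21 and 0.17, which did not pass.

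The chemokine genes and the remaining members gave no call with age in wild type. For Cxcl9 the difference was 0.85 in wild type (SE 0.34, limma adjusted p = 0.079), and its pools of 8.46, 8.13 and 8.75 at day 30 all lay above those of day 15. In knockout the value was -0.09 (SE 0.34). Among the oligoadenylate synthetases, which make the second messenger that activates RNase L, Oas1a, Oas2 and Oas3 had log2 fold changes of -0.10, 0.29 and 0.31 in wild type and of -0.59, -0.56 and -0.36 in knockout, and none passed. Stat2, Ifih1 (the RNA sensor MDA5), Dhx58 and Zbp1, a sensor of Z-form nucleic acid, had log2 fold changes of -0.06, 0.00, -0.08 and 0.10 in wild type and of -0.49, -0.37, -0.87 and -0.23 in knockout. Those did not pass either.

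**Figure D4:**
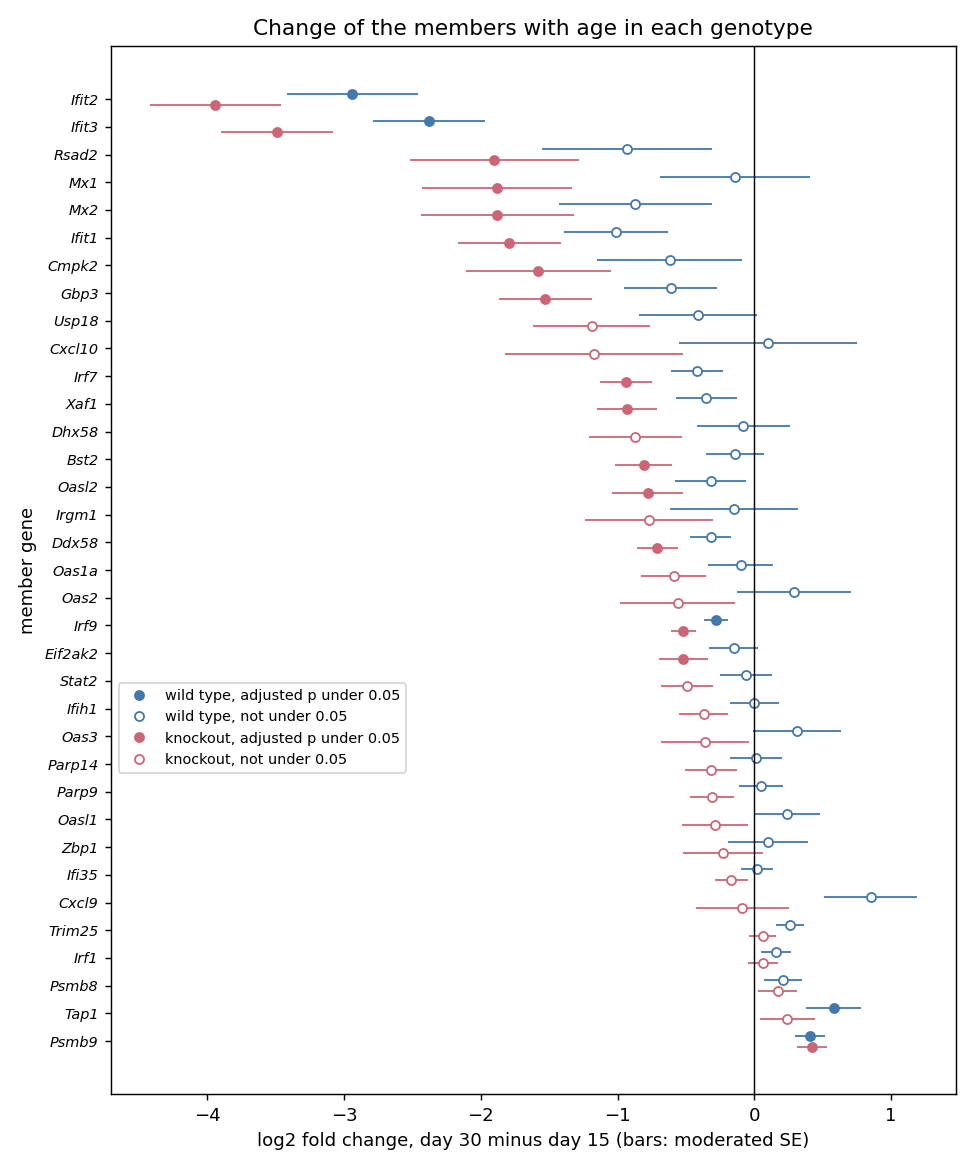
Log2 fold change of day 30 over day 15 for each measured member, in wild type and in knockout, with standard errors from limma. Ifit2 and Ifit3 lie lowest in both genotypes (-2.94 and -2.38 in wild type, -3.94 and -3.49 in knockout) and Psmb9 lies above 0 in both.

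At day 30, no member passed between the genotypes with limma, where 1.98% of all genes did, and 0 members had an unadjusted p under 0.05. The log2 fold changes of knockout over wild type ran from -0.62 for Ifit1 to 0.14 for Tap1, with 30 below 0 and a median of -0.15. Ifit1 had 10.93, 10.32 and 10.81 in wild type and 9.46, 10.16 and 10.59 in knockout, so the groups overlapped. For 2 members, Ifit3 and Cxcl9, all knockout pools lay below all wild type pools, where 7.49% of all genes did. Cxcl9 had 8.46, 8.13 and 8.75 in wild type and 8.05, 8.05 and 7.89 in knockout. The standard errors come from a variance shared by all 4 groups. The Mx1 pools of day 30 had SDs of 0.07 in wild type and 0.16 in knockout, against 0.72 and 1.52 at day 15, so the standard error of 0.55 beside its difference of -0.03 does not describe the spread at day 30. With only the 6 arrays of day 30 fitted, 0 members passed as well.

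Whether the genotype effect differed between ages was tested directly. No member passed with limma, where 0.456% of all genes did, and 2 members, Mx1 (-1.74, SE 0.78) and Bst2 (-0.67, SE 0.30), had an unadjusted p under 0.05. The median over the members was -0.53, with 34 of 35 below 0. The 15 falls in knockout beside 3 in wild type are therefore not shown to differ between the genotypes. With only the 6 arrays compared, 6 of 35 members were called lower in wild type and 11 in knockout. Of all 19938 genes, 3213 were called lower in wild type and 3050 in knockout in those fits. Without knockout pool 1 of day 15, 3 members passed, all lower, where 0.351% of all genes were: Mx1 at -2.60 (SE 0.40, limma adjusted p = 0.014), Gbp3 at -1.44 (SE 0.25, limma adjusted p = 0.025) and Bst2 at -1.0 (SE 0.17, limma adjusted p = 0.020). That pool was singled out by its values for the members. No count or p-value without it, in any comparison, is therefore a separate test.

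Of the ligands, 15 of 19 listed genes were measured, and their mean log2 value lay between 5.97 and 6.25 on all 12 arrays, below the array medians. With limma, none was called between genotypes at either age (0 with an unadjusted p under 0.05) or with age in knockout (2 with one), and 1, Ifnl2 (interferon lambda), was called with age in wild type, higher by 0.26 (SE 0.08, limma adjusted p = 0.033). Of all genes, 3.83% were called between genotypes at day 15 and 1.98% at day 30, and 29.3% with age in wild type and 31.0% in knockout. Ifnb1 differed by 0.11 between genotypes at day 15 (SE 0.09) and Ifng by 0.08 (SE 0.11). Knockout pool 1 of day 15 had a ligand mean of 6.07, and pools 2 and 3 had 6.07 and 5.97, so the ligand mean did not follow the order of the members.

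Of 14 measured receptor and signalling genes, Ifnar2 fell with age by 0.47 in the wild type pools and by 0.71 in the knockout pools (SE 0.09 each, limma adjusted p = 0.0013 and 5.65e-05), and Il10rb fell by 0.42 and 0.50. Socs3, an inhibitor of Jak-Stat signalling, rose by 0.87 and 1.30, and Socs1 rose by 0.42 in wild type. Ifngr1 was higher in knockout at day 15 by 0.26 (SE 0.06, limma adjusted p = 0.027), and Socs3 was higher in knockout at day 30 by 0.50 (SE 0.10, limma adjusted p = 0.026). Each of these 2 calls was lost in 4 of the 6 fits that left out 1 array and with only the 6 arrays compared. For Ifngr1 those were the fits without knockout pool 1 or 2 or wild type pool 1 or 3, and for Socs3 those without knockout pool 1 or 2 or wild type pool 2 or 3. Ifnar1 and Ifnlr1 did not pass in any comparison. Of 15 genes of nucleic acid sensing upstream of interferon, 5 were higher and 2 lower with age in wild type, with Mavs, the mitochondrial adaptor of Ddx58 and Ifih1, rising by 0.46 and in knockout by 0.78. In knockout 5 were higher and 1 lower.

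A wider list of 57 measured type I and III response genes outside the members had a like order of pools, with means of 8.86, 9.71 and 9.66 in knockout at day 15 and 8.88, 9.10 and 9.24 in wild type. At day 15, 2 of the 57 (3.51%) were called higher in knockout, where 1.81% of all genes were. They were Ifi202b (2.77, SE 0.27) and Ifi205 (1.77, SE 0.42), both genes of the DNA-binding p200 family. With age, 4 of 57 (7.02%) were lower in wild type, where 17.0% of all genes were. In knockout 26 (45.6%) were lower, where 17.2% of all genes were. Where only the 6 arrays compared were fitted, 11 and 18 were lower, beside 3213 and 3050 of all 19938 genes. Among the lower genes were Ifit3b (-2.12 and -2.82) and Shisa5 (-0.61 and -0.89). Ifi202b was the 1 gene of the 57 whose genotype effect was called as different between ages, at -2.93 (SE 0.38, limma adjusted p = 0.0041). Of all genes, 0.456% were. Without knockout pool 1 of day 15 it was 8 genes, all lower, where 0.351% of all genes were lower. That fit also called 29 of the 57 higher in knockout at day 15 (2.08% of all genes) and 50 lower with age in knockout (15.7%). The count at day 15 was 1 without any other pool of that age, where 193 to 238 of all genes were called higher. The count with age in knockout was 11 without knockout pool 2 or 3 of day 15 and 13 without knockout pool 1 of day 30. Of all genes, 2981, 2799 and 3005 were lower in those fits. Of 26 measured genes of the gamma response, 10 were higher and 1 lower with age in wild type, where 12.3% and 17.0% of all genes were. In knockout 9 were higher and 4 lower, where 13.8% and 17.2% of all genes were. In wild type and knockout Ccl5 was up by 2.66 and 2.42, and Casp1 was down by 0.60 and 0.66. None of the 26 was called by limma between genotypes at day 15 (3 with an unadjusted p under 0.05), where 3.83% of all genes were. Without knockout pool 1 of that age 8 were higher in knockout, where 2.08% of all genes were.

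Marker lists of other cells were read beside these results. In the knockout pools of day 15, markers of T and natural killer cells averaged 6.46, 6.50 and 6.53 (6.34, 6.36 and 6.29 in wild type), those of macrophages and dendritic cells 7.98, 8.06 and 8.12, and those of plasmacytoid dendritic cells, without the member Bst2, 7.97, 7.94 and 7.97. The member means in the same pools were 9.24, 10.50 and 10.45. The wild type pools of day 15 had 8.04, 8.12 and 8.05 for macrophages and dendritic cells. For plasmacytoid dendritic cells without Bst2 they had 7.78, 8.02 and 7.99. Pool 1 was the lowest there, as it was for the members, at 9.26, 9.74 and 9.95. Stomach and Brunner gland markers were at 9.76, 9.29 and 9.23 in the knockout pools of day 15, highest in pool 1, where the members were lowest. Of these markers 4 of 13 were called lower in knockout at day 15, where 2.03% of all genes were. Pancreas markers were at 11.92, 11.61 and 12.13 in the same pools. In wild type at day 15 the stomach list had 9.91, 9.78 and 9.72. At day 30 it had 9.49, 9.89 and 9.39 in wild type, highest in pool 2, where the members were lowest. In knockout at day 30 it had 9.47, 9.55 and 9.64, lowest in pool 1, as the members were. Other lists also differed between the genotypes at day 15. Of T and natural killer cell markers, 2 of 18 were called higher in knockout, and of enterocyte markers 3 of 14, where 1.81% of all genes were. Of smooth muscle markers 3 of 12 were called lower, where 2.03% of all genes were. Their means were 10.67, 10.68 and 10.77 in wild type and 10.52, 10.39 and 10.57 in knockout. With the T and natural killer cell mean as a covariate, no member was called at day 15 and 5 changed sign. With the smooth muscle mean, none was called and 2 changed sign. Over all genes the calls dropped from 764 to 34 and to 104. Both list means separate the genotypes at day 15 without overlap, so genotype and these lists cannot be told apart there. The part of the other tissues in the differences of the members was not tested.

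With age, 13 of 18 T and natural killer cell markers rose in each genotype, from list means of 6.29 to 6.53 at day 15 to 7.43 to 7.56 at day 30. Of all genes, 12.3% rose in wild type and 13.8% in knockout. Smooth muscle markers fell, 12 of 12 in wild type and 11 of 12 in knockout, from 10.39 to 10.77 down to 9.97 to 10.14. Of all genes, 17.0% and 17.2% fell. With either list mean as a covariate in the limma fit, 0 members were called with age in either genotype. Both list means separate the ages without overlap, and over all genes the calls dropped to 57 in wild type and 402 in knockout with the smooth muscle mean and to 0 in both with the T cell mean, so age and these lists cannot be told apart here.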

How the data were processed

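Total RNA of 12 pools of mouse duodenum was hybridised to Affymetrix whole-transcript gene arrays, 5.5 micrograms per array. The authors deposited log2 values per feature, which came from RMA as run in Affymetrix Expression Console 1.1, per the submitters' processing notes. Their log base is unstated and was read as 2, given RMA and the range of the values. RMA forces arrays onto nearly one distribution, so a shift shared by most genes is removed, and folds of very dim or very bright genes are understated. Of 35557 features, 21789 had 1 gene symbol, 1621 had several and 12147 had none. The 1-symbol features gave 19938 genes, and 999 genes had several features, of which the one with the highest mean was used. Irf1 was the 1 member with several.

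A model of 4 group means was fitted to all 12 arrays with limma (3.58.1, R 4.3.3; 8 residual degrees of freedom, eBayes defaults), and p-values were adjusted by Benjamini-Hochberg over all genes within a comparison. The code was tested on simulated data. Same-numbered pools were checked for shared deviations: the correlations were 0.36, -0.01 and 0.26 between genotypes at day 15, -0.11, 0.12 and -0.24 at day 30, 0.29, 0.06 and 0.17 between ages in wild type and 0.04, -0.08 and -0.25 in knockout. They were not all above 0.1 in any comparison, so the numbers were not taken as pairs. The members and lists were chosen with earlier results of these data known. Any member could be named. Of other lists, up to 4 called genes with the smallest p per comparison were named, with a set of leading pathway genes, and of all other genes the 10 with the largest range between pools in the group where the members varied most. Alternatives changed the moderation, the filter on dim genes, the arrays fitted, array weights, the block, the feature rule, the centring, 2 composition covariates and each array left out in turn. Promoters came from RefSeq (GRCm38.p6), and no coordinates were taken from the array annotation.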

Additional observations from a re-analysis of the deposited data

How the results depend on the processing

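Leaving out 1 array gave 0 to 14 called members for knockout against wild type at day 15, 3 to 5 for age in wild type, 9 to 30 for age in knockout and 0 to 3 for the difference between the genotype effects, and the highest value of all but the wild type comparison came without knockout pool 1 of day 15. The median range of the members in knockout at day 15 was 0.12 without that pool and 1.05 at most with another pool left out. When only the 6 arrays compared were fitted, 11 members were called with age in wild type (27.8% of all genes) and 12 in knockout (27.1%), in place of 5 and 16. In wild type, 0 were called with the smooth muscle or the T and natural killer cell mean as a covariate, which also left 0 in knockout. Under these covariates the log2 fold change of Irf9 in wild type was 0.0028 (smooth muscle), and with the T and natural killer cell mean those of Psmb9 were -1.53 in wild type and -1.31 in knockout and that of Tap1 in wild type was -1.47; the cause was not tested. With the pool number as a block, 8 members were called with age in wild type (28.7% of all genes), 20 in knockout (30.3%) and 0 in the other comparisons; the numbers did not meet the rule for pairing. Centring each array on its median changed the split over all genes with age from 2455 higher and 3394 lower to 3252 and 2923 in wild type, and from 2753 and 3425 to 3492 and 3027 in knockout, while 3 members were higher and 3 lower in wild type and 1 and 15 in knockout. The number of arrays limits the precision, and p-values measure only the spread between pools.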
